A study of Mus musculus with 6 samples.

Results

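The mitosis and spindle genes are 43 genes whose products drive or carry out cell division: cyclins and kinases of mitotic entry, the spindle checkpoint, the kinetochore, spindle motors and the cytokinesis machinery. They were selected by gene symbol from 27670 named genes on the array, as a list drawn up with earlier results of these data known. All 43 were found, all were well above background on all 6 arrays, and all were among the 15423 genes tested. They were measured on single-colour Agilent arrays of total RNA from the 4T1.2 line, mouse mammary tumour cells of BALB/c background derived from 4T1. The tested cells stably carried the pMSCV retroviral vector with Irf7 (IRF7 cells), and the control cells carried the same vector without it (base-vector cells), with 3 arrays each from 3 independent experiments according to the design text. Both populations were selected with puromycin, cloned from single cells, and then made up of several pooled clones. Each group is therefore 1 pooled population, and p-values reflect only how its cultures vary.

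Transcripts of mitotic genes build up in G2 and mitosis. Cyclin B with Cdk1 starts mitosis, Aurora and Polo-like kinases build the spindle, and the spindle checkpoint delays anaphase until kinetochores are attached. The anaphase promoting complex with Cdc20 then marks securin and cyclin B for destruction, and the central spindle guides cytokinesis. Many of these genes are switched on together through a CHR element (cell cycle genes homology region) and CCAAT boxes bound by NF-Y, and their summed level is widely read as a measure of proliferation. Irf7 is a transcription factor of type I interferon genes, and interferons slow the division of many cell types.

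Levels are log2 of a spot's background-subtracted signal minus log2 of the 75th percentile of its array, so a level of 0 equals that percentile. Changes are log2 levels in IRF7 cells minus base-vector cells, and a gene was called at an adjusted p under 0.05 (limma, Benjamini-Hochberg over all genes tested). The introduced gene checks the labels. Irf7 had levels of 1.80, 1.83 and 1.78 in IRF7 cells, against -2.39, -2.55 and -2.48 in base-vector cells, a 19.4-fold difference (log2 change 4.28, SE 0.049, limma adjusted p = 3.17e-07; 4.19 within slide 1). All 13 listed antiviral genes that interferon induces were higher in IRF7 cells, with a median log2 change of 2.76. Arrays of a group correlated at 0.995 to 0.997 over the genes tested, and arrays of different groups at 0.978 to 0.98. The 3 IRF7 arrays and base-vector replicate 1 shared slide 1 and scan 1, whereas the other base-vector arrays came from slide 2 and scan 2. Slide 1 therefore holds the only comparison within a slide, and it rests on 1 base-vector array. The p-values of that comparison take their spread, moderated across genes, from the 3 IRF7 arrays alone and assume that the lone base-vector array varies like them, so a call kept or lost there is weak evidence either way and the change itself is the value to read.

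The mitotic genes did not move as a block. Of the 43, 12 rose in IRF7 cells, 15 fell and 16 did not pass the test, so that 62.8% were called. Among all genes tested 60.9% were called, 31.9% higher and 29.1% lower, against 27.9% higher and 34.9% lower among the mitotic genes, and these shares are close to one another. The changes were small. Their median was -0.05, beside 0.03 over all genes, and they ran between -0.53 and 0.51. None reached 2-fold, a size that 5.87% of all genes reached with a call, and the median absolute log2 change was 0.15 in the mitotic genes and 0.24 in all genes. The groups did not overlap in 34 of the 43 (79.1%) and in 67.8% of all genes. The balance of directions among the calls depends on the scaling. Unscaled values move the median of all genes from 0.03 to 0.23 and the share of called genes that are higher from 52.3% to 79.1%. Without scaling 13 mitotic genes were called higher and 2 lower, with a median of 0.15, and 3 of the 27 called genes changed sign. With median centring 1 was called higher and 12 lower, but none of the 27 changed sign. Calls over all genes fell from 9399 to 6364 with median centring. In bulk RNA a smaller share of cells in mitosis and less RNA per mitotic cell cannot be told apart.

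**Figure D1:**
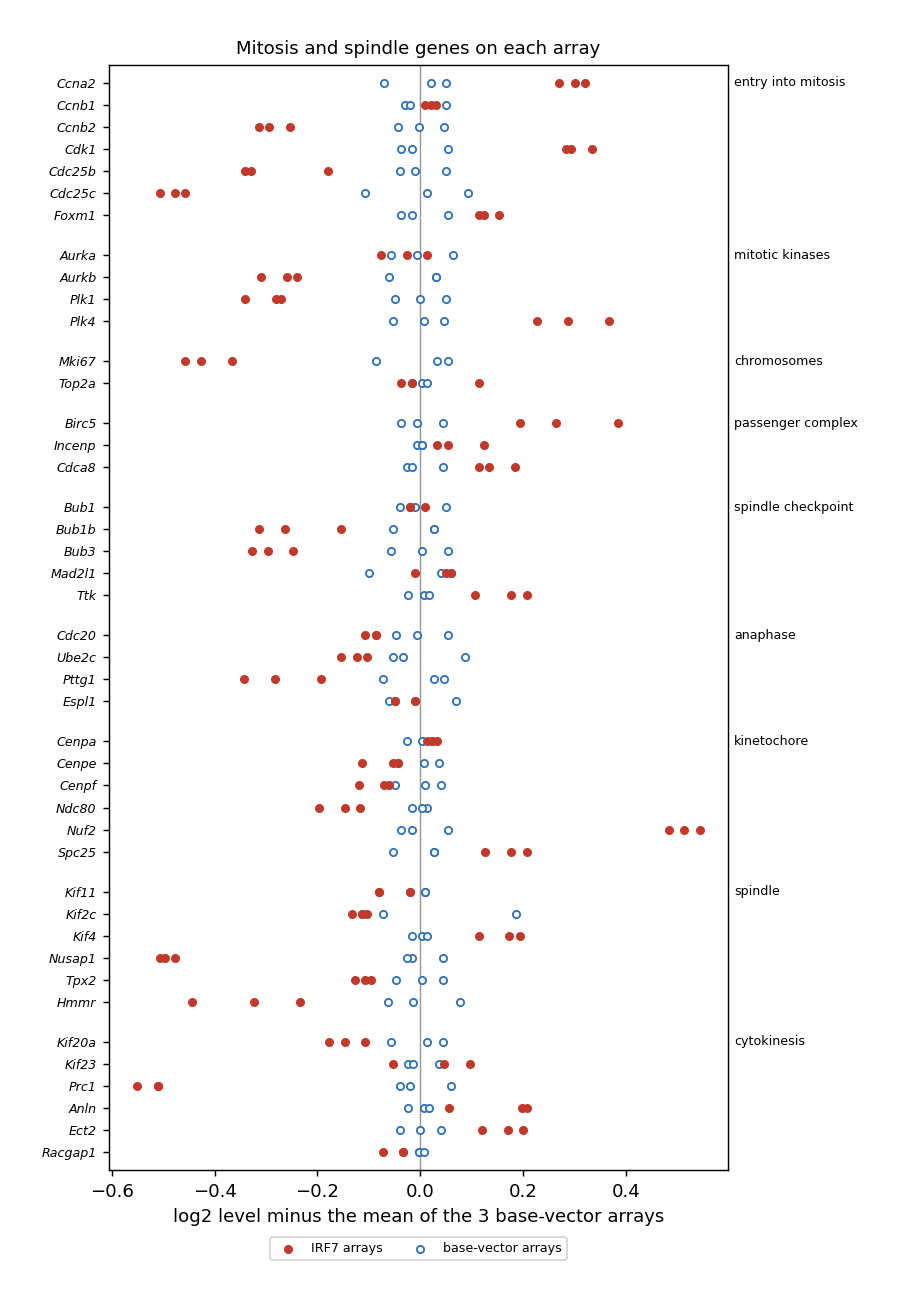
Level of each of the 43 mitotic genes on each array, as log2 level minus the mean of the 3 base-vector arrays (horizontal axis), with genes grouped by role on the vertical axis. Filled red points are the 3 IRF7 arrays and open blue points the 3 base-vector arrays; the IRF7 points lie clear of the base-vector points in 34 genes, to the right for Nuf2 and to the left for Prc1, Nusap1 and Cdc25c.

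A group of 3 genes carried the same call, in the same direction, under each of the alternative scalings, filters, fits and left-out arrays that were run: Nuf2 rose, and Nusap1 and Prc1 fell. Prc1 bundles the antiparallel microtubules of the central spindle. Its levels were 3.78, 3.74 and 3.78 in IRF7 cells, against 4.27, 4.25 and 4.35 in base-vector cells. The groups are well apart, and Prc1 was the largest fall of the set, to 0.694 of the base-vector level (log2 change -0.53, SE 0.038, limma adjusted p = 0.00011; -0.51 within slide 1). Its probe (A_51_P366931) lies on chromosome 7 at 76185003 to 76185055 of mouse build mm7, on the plus strand. Nusap1, which binds and stabilises spindle microtubules near chromosomes, had levels of 2.57, 2.58 and 2.60 in IRF7 cells and 3.06, 3.05 and 3.12 in base-vector cells. It stood at 0.71 of the base-vector level (log2 change -0.49, SE 0.031, limma adjusted p = 6.88e-05; -0.48 within slide 1), with the lowest base-vector array far above the highest IRF7 array. A dimmer Nusap1 probe (A_52_P69281) gave a smaller fall, a log2 change of -0.21 (limma adjusted p = 0.0107 over all probes), and the mean of both probes gave -0.35. Nuf2, a subunit of the Ndc80 complex that ties kinetochores to microtubules, read 2.78, 2.81 and 2.84 in IRF7 cells and 2.26, 2.28 and 2.35 in base-vector cells. No other mitotic gene rose as much (1.43-fold, log2 change 0.51, SE 0.037, limma adjusted p = 0.000113; 0.55 within slide 1), and its groups did not overlap.

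The genes were not chosen by promoter letters, but shared CHR and CCAAT elements are a known trait of mitotic genes, as said above. Promoters of mitotic genes outside the 43 were not read as a separate list, so no trait particular to this set is shown. RefSeq promoters (assembly GRCm38.p6, 250 bases before to 50 bases after the start) were matched for 36 of the 43 genes, which have 39 promoters. The motifs of the other 7 (Ccna2, Cdc25c, Foxm1, Aurkb, Incenp, Tpx2 and Kif20a) were therefore not read. The motifs searched, on both strands, were CHR (TTTGAA or TTCGAA), the NF-Y box CCAAT, the E2F site (TTTCCCGC, TTTCGCGC, TTTGCCGC or TTTGGCGC) and an interferon response motif (GAAA, any 2 bases, GAAA). The CHR letters were found in 31 of the 39 promoters (79.5%) and in 19.2% of all 32851 promoters of that length. CCAAT was found in 76.9% and 37.4%, and both were found in 71.8% and 7.52%. The CHR lay within 50 bases of the start in 71.8% of the mitotic promoters and in 5.31% of all promoters. In 41.0% of the mitotic promoters a CCAAT preceded a CHR, at any distance from the start, by 25 to 40 bases, against 0.706% of all promoters. These matches describe the letters only and are not sites of binding. Neither distance window was planned beforehand.

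The promoters of Prc1 and Mki67 are shown in gene orientation, with each motif in capitals. Among the 36 genes with a matched promoter, they have the largest changes of those that hold both motifs. In 1 of the 2 Prc1 promoters (chr7:80294201-80294500, GRCm38.p6, plus strand) the CHR begins 5 bases and the CCAAT 37 bases upstream of the start. In Mki67 (chr7:135716330-135716629, minus strand) a pair of CHR copies begins 116 and 98 bases upstream, and NF-Y boxes begin 188, 166 and 141 bases upstream, the middle one read as ATTGG.
Prc1: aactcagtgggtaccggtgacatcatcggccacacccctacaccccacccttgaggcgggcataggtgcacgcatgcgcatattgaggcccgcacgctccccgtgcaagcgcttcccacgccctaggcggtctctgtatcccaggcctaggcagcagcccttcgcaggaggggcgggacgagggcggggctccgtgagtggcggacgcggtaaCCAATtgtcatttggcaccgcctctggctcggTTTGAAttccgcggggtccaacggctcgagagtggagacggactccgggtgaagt
Mki67: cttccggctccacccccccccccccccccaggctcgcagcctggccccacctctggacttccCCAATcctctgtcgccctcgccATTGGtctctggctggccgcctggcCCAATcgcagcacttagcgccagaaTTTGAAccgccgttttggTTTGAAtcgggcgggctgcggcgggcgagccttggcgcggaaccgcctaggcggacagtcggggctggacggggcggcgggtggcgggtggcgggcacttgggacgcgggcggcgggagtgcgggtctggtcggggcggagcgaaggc

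The motifs did not sort the genes by direction. CHR letters were present in 8 of the 11 promoters of genes that rose (72.7%), 11 of the 13 promoters of those that fell (84.6%) and 12 of the 15 promoters of those not called. The promoters belong to 10 genes that rose and 11 that fell, since overlapping promoters of Bub3, Ect2 and Prc1 were counted separately. The promoters of Nuf2 and Nusap1, which moved in opposite directions, hold neither CHR nor CCAAT in this window, and neither do those of Birc5, Mad2l1, Plk4 and Pttg1. The E2F letters were found in 2.56% of the mitotic promoters, 27.9% of the promoters of listed S-phase genes and 2.26% of all promoters. The mitotic promoter that holds them is that of Cdk1. The interferon response letters were found in 5.13% of the mitotic promoters, those of Bub1b and Spc25, and in 3.44% of all promoters.

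**Figure D2:**
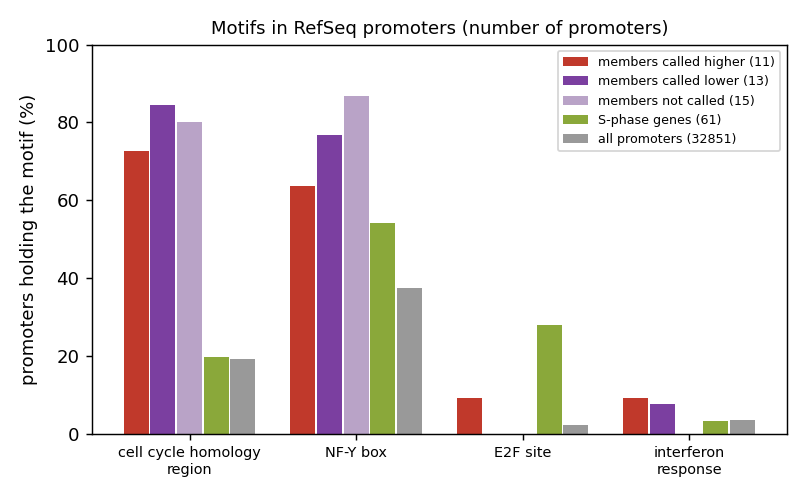
Share of RefSeq promoters (vertical axis, percent) that hold the letters of each motif, for mitotic genes called higher, called lower and not called, listed S-phase genes and all promoters, with the number of promoters in the legend. The CHR bars of mitotic genes stand at 72.7% for those called higher and 84.6% for those called lower, beside 19.7% for S-phase genes and 19.2% for all promoters.

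Among the 7 regulators of entry into mitosis, 3 rose, 3 fell and 1 was not called. Ccna2, the cyclin of S phase and early mitosis, had levels of 4.03, 4.00 and 4.05 in IRF7 cells and 3.75, 3.66 and 3.78 in base-vector cells. Cdk1, the kinase that cyclins A and B activate (named Cdc2a in the files), had levels of 4.01, 3.97 and 3.96 in IRF7 cells and 3.66, 3.64 and 3.73 in base-vector cells. Both rose 1.23-fold with groups that did not overlap (Ccna2 log2 change 0.30, SE 0.041, limma adjusted p = 0.00139; Cdk1 log2 change 0.30, SE 0.036, limma adjusted p = 0.0008), and both kept the call within slide 1, at 0.28 and 0.32. The other was Foxm1, a transcription factor that activates G2 and M genes. Its levels were 2.74, 2.70 and 2.71 in IRF7 cells and 2.55, 2.57 and 2.64 in base-vector cells. The gap between its groups was narrow (log2 change 0.13, SE 0.036, limma adjusted p = 0.0213), and leaving out any 1 array other than base-vector replicate 3 ended the call (adjusted p of 0.0505 to 0.0687).

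The genes of this group that fell were Ccnb2 and the phosphatases Cdc25b and Cdc25c, which remove the inhibitory phosphates from Cdk1. Cdc25c had levels of 0.02, -0.01 and 0.04 in IRF7 cells, against 0.59, 0.51 and 0.39 in base-vector cells. Its base-vector arrays were more spread than its IRF7 arrays, and all 3 lay above them (0.718 of the base-vector level, log2 change -0.48, SE 0.056, limma adjusted p = 0.000732; -0.57 within slide 1). Ccnb2, a B-type cyclin, read 5.34, 5.28 and 5.30 in IRF7 cells and 5.59, 5.55 and 5.64 in base-vector cells (log2 change -0.29, SE 0.036, limma adjusted p = 0.00105). Its relative Ccnb1, the main mitotic cyclin, had levels of 1.79, 1.80 and 1.78 in IRF7 cells and 1.74, 1.75 and 1.82 in base-vector cells. The groups of Ccnb1 overlapped (log2 change 0.02, 95% interval -0.06 to 0.10, limma adjusted p = 0.605), whereas those of Ccnb2 did not. Cdc25b stood at 3.72, 3.57 and 3.56 in IRF7 cells and 3.86, 3.95 and 3.89 in base-vector cells (log2 change -0.29, SE 0.053, limma adjusted p = 0.005; not called within slide 1, at -0.25 with adjusted p = 0.0793).

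Of the 4 mitotic kinases, Aurkb and Plk1 fell, Plk4 rose and Aurka was not called. Aurkb is the catalytic subunit of the chromosomal passenger complex, which corrects wrong attachments. It had levels of 1.71, 1.69 and 1.64 in IRF7 cells and 1.98, 1.89 and 1.98 in base-vector cells, with no overlap (log2 change -0.27, SE 0.038, limma adjusted p = 0.00152; -0.30 within slide 1). Plk1, which acts from centrosome maturation through cytokinesis, had levels of 4.51, 4.44 and 4.50 in IRF7 cells and 4.78, 4.73 and 4.83 in base-vector cells. It was 1.23-fold lower (log2 change -0.30, SE 0.039, limma adjusted p = 0.00111; -0.30 within slide 1). Plk4, the kinase that licenses centriole duplication, read 0.57, 0.43 and 0.49 in IRF7 cells and 0.25, 0.21 and 0.15 in base-vector cells, with every IRF7 array above every base-vector array. Its log2 change was 0.29 (SE 0.05, limma adjusted p = 0.00358), and within slide 1 it was 0.24 and not called (adjusted p = 0.0613). Aurka, the centrosomal Aurora kinase, differed by -0.03 (95% interval -0.14 to 0.08) and its groups overlapped.

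None of the passenger partners of Aurkb fell, and 2 of the 3 rose, though none was called with median centring. Birc5 (survivin) had levels of 6.46, 6.27 and 6.34 in IRF7 cells and 6.12, 6.04 and 6.07 in base-vector cells, a log2 change of 0.28 (SE 0.054, limma adjusted p = 0.00561). Cdca8 (borealin) rose by 0.14 on the log2 scale (limma adjusted p = 0.015), and Incenp, the scaffold, differed by 0.07 (limma adjusted p = 0.108) with groups that did not overlap. None of the 3 was called within slide 1, where the changes were 0.24, 0.17 and 0.07, and Cdca8 also lost its call without base-vector replicate 1 (adjusted p = 0.0523).

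Mki67, the antigen of Ki-67 proliferation stains, which keeps mitotic chromosomes dispersed, had levels of 4.42, 4.48 and 4.39 in IRF7 cells and 4.88, 4.90 and 4.76 in base-vector cells. It stood at 0.75 of the base-vector level (log2 change -0.42, SE 0.05, limma adjusted p = 0.000823; -0.45 within slide 1), with no overlap. Top2a, the topoisomerase that untangles sister chromatids, is also used as a proliferation marker. It had levels of 3.59, 3.44 and 3.46 in IRF7 cells and 3.48, 3.49 and 3.46 in base-vector cells, overlapping, with a log2 change of 0.02 (95% interval -0.10 to 0.13). Of the 2 proliferation markers, Mki67 thus fell and Top2a did not pass the test, and the difference between them was not tested.

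In the spindle checkpoint, Bub1b and Bub3 fell, Ttk rose, and Bub1 and Mad2l1 were not called. Bub3, which brings checkpoint kinases to kinetochores, had levels of 3.88, 3.85 and 3.93 in IRF7 cells and 4.18, 4.12 and 4.23 in base-vector cells (log2 change -0.29, SE 0.041, limma adjusted p = 0.00155; -0.30 within slide 1). Bub1b (BubR1), part of the complex that holds back Cdc20, read 2.12, 2.17 and 2.28 in IRF7 cells and 2.46, 2.38 and 2.46 in base-vector cells. Neither gene's groups overlapped, although the Bub1b change of -0.24 (limma adjusted p = 0.00913) was not called within slide 1 (-0.27, adjusted p = 0.0589). Ttk (Mps1), the kinase at the head of the checkpoint, had levels of -0.50, -0.43 and -0.40 in IRF7 cells and -0.60, -0.63 and -0.59 in base-vector cells (log2 change 0.16, limma adjusted p = 0.00994). Bub1 differed by -0.01 and Mad2l1 by 0.04, each with overlapping groups and an interval within -0.10 to 0.16.

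The genes of anaphase onset all had negative changes, but only that of Pttg1 passed the test. Pttg1 is securin, which holds separase inactive. It had levels of 5.01, 4.86 and 4.92 in IRF7 cells and 5.25, 5.13 and 5.23 in base-vector cells, with no overlap (log2 change -0.28, SE 0.053, limma adjusted p = 0.00555; -0.32 within slide 1). Cdc20, the activator of the anaphase promoting complex, and Ube2c, its ubiquitin-conjugating enzyme, had changes of -0.10 (limma adjusted p = 0.0518) and -0.12 (limma adjusted p = 0.0602). Both had groups that did not overlap and lay just outside the threshold, and both were called after quantile normalization. Neither was called with median centring, and without scaling the changes of Cdc20 and Ube2c were 0.10 and 0.07. Espl1 (separase), the protease that securin inhibits, differed by -0.04 and its groups overlapped. The median of the 4 was -0.11, and 0.09 without scaling.

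At the kinetochore, the subunits of the Ndc80 complex did not move together. Against the rise of Nuf2, its direct partner Ndc80 (Kntc2 in the files) had levels of 1.19, 1.14 and 1.22 in IRF7 cells and 1.35, 1.32 and 1.34 in base-vector cells (log2 change -0.15, SE 0.033, limma adjusted p = 0.00917). Spc25 (Spbc25 in the files) read 1.41, 1.46 and 1.49 in IRF7 cells and 1.31, 1.23 and 1.31 in base-vector cells (log2 change 0.17, SE 0.038, limma adjusted p = 0.0111). Both sets of groups were apart, but within slide 1 only Nuf2 was called, and Ndc80 changed sign to 0.05 without scaling. The remaining subunit, Spc24, which is not among the 43, was measured on all 6 arrays, differed by -0.04 and was not called. Of the centromere proteins, Cenpa, the centromeric histone, differed by 0.02, Cenpe, a kinetochore motor, by -0.07, and Cenpf, which binds the outer kinetochore, by -0.08. None of these 3 passed the test.

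Of the 6 spindle motors and microtubule binders, Nusap1, Tpx2 and Hmmr fell and Kif4 rose. Hmmr, a spindle-pole protein also known as a hyaluronan receptor, had levels of 0.26, 0.17 and 0.05 in IRF7 cells and 0.48, 0.57 and 0.43 in base-vector cells. Its IRF7 arrays were spread but lay below every base-vector array (log2 change -0.33, SE 0.066, limma adjusted p = 0.00628; -0.32 within slide 1, adjusted p = 0.0624). Tpx2, which activates Aurka and nucleates spindle microtubules, differed by -0.11 (limma adjusted p = 0.0337), and it was 0.09 without scaling. Kif4, a chromosome-arm motor, rose by 0.16 on the log2 scale (limma adjusted p = 0.00591). Kif11 (Eg5), which slides spindle poles apart, differed by -0.06, and Kif2c, which takes microtubule ends apart, by -0.12 with 1 high base-vector array (levels 0.17, 0.19 and 0.20 in IRF7 cells and 0.19, 0.23 and 0.49 in base-vector cells). Neither was called.

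The central spindle and cytokinesis genes were divided, with Prc1 and Kif20a lower, Anln and Ect2 higher, and Kif23 and Racgap1 not called. Kif23 and Racgap1 form the centralspindlin complex that recruits Ect2, and their changes were 0.03 and -0.05. Ect2, the exchange factor that activates RhoA at the cell equator, had levels of 2.66, 2.58 and 2.63 in IRF7 cells and 2.46, 2.42 and 2.50 in base-vector cells (log2 change 0.16, limma adjusted p = 0.012). Its groups were apart on all arrays, yet within slide 1 the adjusted p was 0.0774. The Ect2 rise also rests on its main probe, since a further probe (A_52_P65050) differed by 0.03 (limma adjusted p = 0.84 over all probes) and the mean of both gave 0.10 and no call (limma adjusted p = 0.206). Kif20a, a motor of the central spindle, differed by -0.14 (limma adjusted p = 0.02) and was 0.06 without scaling. Anln (anillin), a scaffold of the contractile ring, read 1.52, 1.66 and 1.67 in IRF7 cells and 1.47, 1.48 and 1.44 in base-vector cells, so that 1 IRF7 array lay close to the base-vector arrays (log2 change 0.15, SE 0.048, limma adjusted p = 0.0366).

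**Figure D3:**
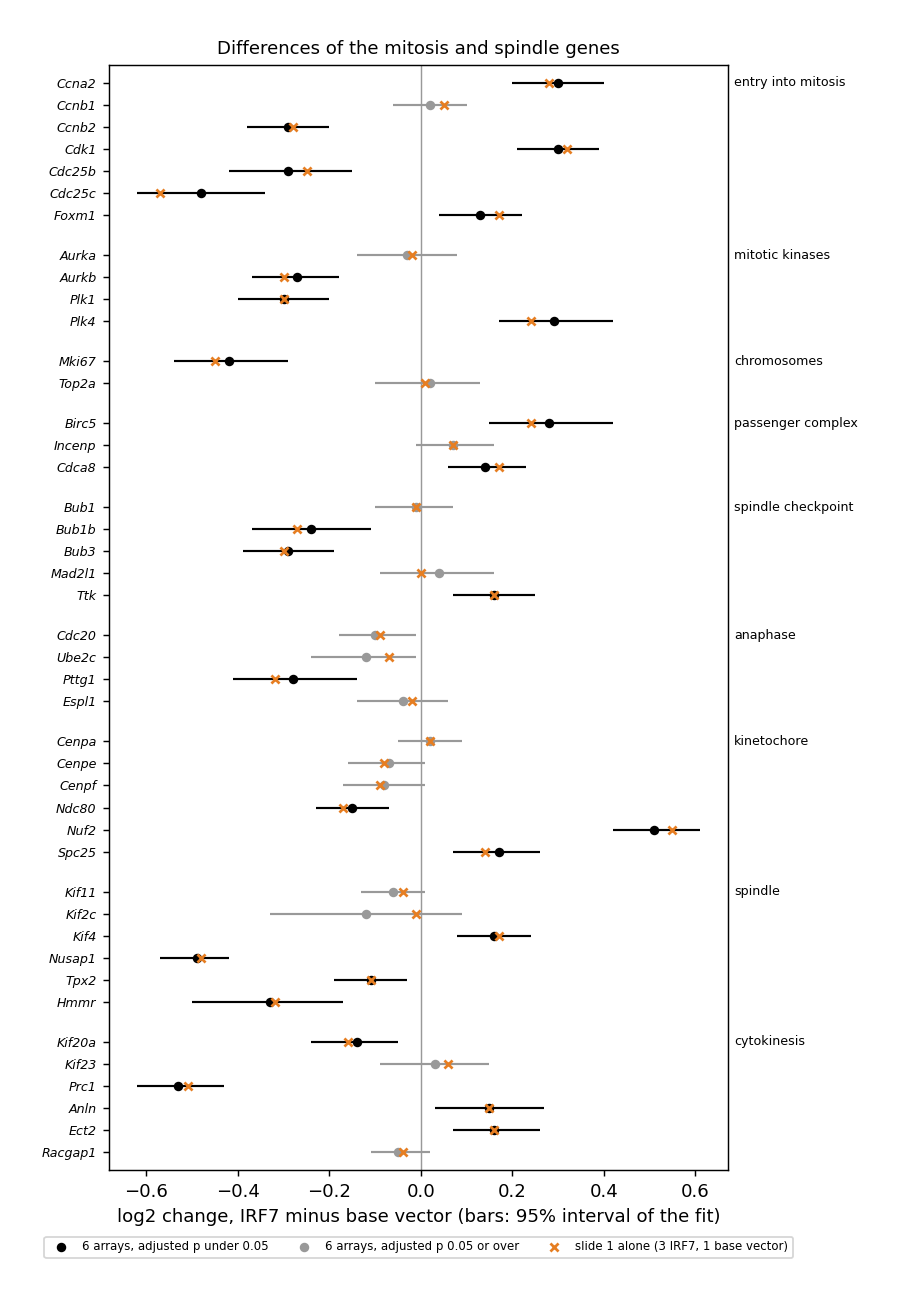
Log2 change of each mitotic gene, IRF7 minus base vector (horizontal axis), by role, with bars for the 95% interval of the fit to 6 arrays; black points passed the adjusted threshold and grey points did not. Crosses give the change within slide 1 alone (3 IRF7 arrays, 1 base-vector array), and none of the 27 called genes moved by more than 0.09 there.

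Within slide 1, all 27 called genes kept their sign and 13 kept the call, 4 higher (Ccna2, Cdk1, Foxm1, Nuf2) and 9 lower (Ccnb2, Cdc25c, Aurkb, Plk1, Mki67, Bub3, Pttg1, Nusap1, Prc1). With slide as a fixed block 16 kept it. That fit estimates the difference from the same base-vector array, so the pair is 1 check. Leaving out any 1 array ended no call for 22 of the 27, and Foxm1, Cdca8, Tpx2, Kif20a and Anln lost theirs without at least 1 array.

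Further probes gave a second reading of part of the set. The 43 genes had 75 probes, and 23 genes had more than 1. Of the 32 further probes, 28 were well above background on at least 3 arrays, 25 of those had the sign of the main probe and 21 lay within 0.15 of its log2 change. All 15 measured further probes of called genes had the sign of the call, and 11 were called with it. These counts include a Cdk1 probe, given below, that passed the filter through the IRF7 arrays alone, so its agreement is no support. The 4 not called were those of Ect2 (0.03), Cdca8 (A_52_P392544 at 0.26 and A_52_P463220 at 0.14) and Bub3 (A_52_P110040 at -0.01). For Mki67 the further probe (A_51_P253808) changed by -0.44, beside -0.42 for the main probe. For Plk4 it (A_52_P668285) changed by 0.34, beside 0.29. A further Cdk1 probe (A_52_P339954) was well above background in the 3 IRF7 arrays and in none of the base-vector arrays. It changed by 0.43 with the dim base-vector signals taken as measured, so this is an estimate and not a lower limit. The further probes of Kif20a (A_51_P133137, -0.16), Cdc25c (A_52_P25599, -0.34) and Kif4 (A_51_P254805, 0.12) were called as their main probes were.

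Among genes not called on the main probe, further probes of Cenpe (A_51_P164021, -0.09, limma adjusted p = 0.0462 over all probes) and Racgap1 (A_52_P298465, -0.11, limma adjusted p = 0.0392 over all probes) passed the test. Another Cenpe probe (A_51_P174192) differed by -0.04, and the Cenpf probe A_52_P227880 by -0.12. Ccnb1 probes A_51_P287093 and A_52_P558401 differed by 0.00 and 0.01, Kif23 probe A_51_P324287 by 0.06 and Mad2l1 probe A_51_P230878 by 0.08. Top2a probes A_52_P156502 and A_52_P415299 differed by 0.09 and 0.20, and Kif11 probes A_52_P177802 and A_52_P646059 by 0.09 and 0.11, opposite in sign to the main Kif11 probe. None of these differences passed the test, apart from the Cenpe and Racgap1 ones named first. A further probe each of Bub3 (A_52_P470832), Espl1 (A_51_P443279), Nuf2 (A_52_P207347) and Plk4 (A_52_P59654) was well above background on none of the arrays.

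Of the further probes, 5 differed from the main one by more than 0.25, that of Nusap1 given above and those of Cenpa, Bub3, Cdc25b and Anln. A dim Cenpa probe (A_52_P328630, chromosome 5, 29701723 to 29701782 of mm7) had levels of -4.67, -4.39 and -4.86 in IRF7 cells and -3.87, -3.97 and -4.27 in base-vector cells. That is a fall of 0.61 on the log2 scale (limma adjusted p = 0.0174 over all probes), whereas the brighter Cenpa probe (A_51_P273979) differed by 0.02. For Bub3, probe A_52_P110040 differed by -0.01 (limma adjusted p = 0.899), beside -0.29 for the main probe and -0.33 for A_52_P1052476, so the Bub3 call rests on part of its probes. For Cdc25b, probe A_52_P615877 changed by -0.78, beside -0.29 for the main probe and for A_52_P612382. The Anln probes are shown because the size of its rise depends on which is read. The main probe (A_52_P512955, chromosome 9, 22212935 to 22216751 of mm7, minus strand) has 60 bases over a genomic span of 3817, so it crosses a splice junction, and changed by 0.15. The further probe (A_51_P313896, chromosome 9, 22252004 to 22252063, minus strand) had levels of 1.17, 0.95 and 1.18 in IRF7 cells and 0.62, 0.53 and 0.23 in base-vector cells, a rise of 0.64 (SE 0.12, limma adjusted p = 0.00543).
A_52_P512955: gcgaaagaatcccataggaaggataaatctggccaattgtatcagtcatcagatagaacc
A_51_P313896: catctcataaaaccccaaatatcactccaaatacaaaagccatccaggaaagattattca

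Position along the chromosomes moved with part of these changes. The 43 genes lie on 16 chromosomes. All 4 on chromosome 7 (Plk1, Mki67, Bub3 and Prc1) fell, with a median of -0.36, and the other 1156 tested genes of that chromosome had a median of -0.38. On chromosome 2, 4 of 8 mitotic genes fell and 1 rose (median -0.12), beside -0.11 for the other genes there. On chromosome 11, 3 of 5 fell and 1 rose (median -0.27), and the other genes had a median of -0.14. Other chromosomes differed more from their other genes. Both mitotic genes of chromosome 18 fell (median -0.31, other genes -0.02). On chromosome 3, 3 of 4 rose (median 0.23, other genes 0.07), and the 3 on chromosome 4 had a median of -0.10 (other genes 0.07). Without the chromosome 7 genes 12 rose and 11 fell, and the median was -0.03. The part of position in these calls was not tested.

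Set against the tested genes within 5 Mb, the fall of Plk1 (-0.30, neighbours' median -0.32) was of the size of its neighbourhood, and so were those of Bub3 (-0.29, neighbours -0.42), Aurkb (-0.27, neighbours -0.28), Pttg1 (-0.28, neighbours -0.26) and Bub1b (-0.24, neighbours -0.21). Mki67 (-0.42) and Prc1 (-0.53) had neighbours at -0.35 and -0.37. Other changes stood in neighbourhoods that moved less or the other way: Nusap1 at -0.49 beside -0.22, Cdc25c at -0.48 beside -0.05, Ccnb2 at -0.29 beside 0.03, Nuf2 at 0.51 beside 0.16, Birc5 at 0.28 beside 0.02, and Spc25 at 0.17 beside -0.19. Minus its neighbours' median, the median change of the 43 was -0.01.

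**Figure D4:**
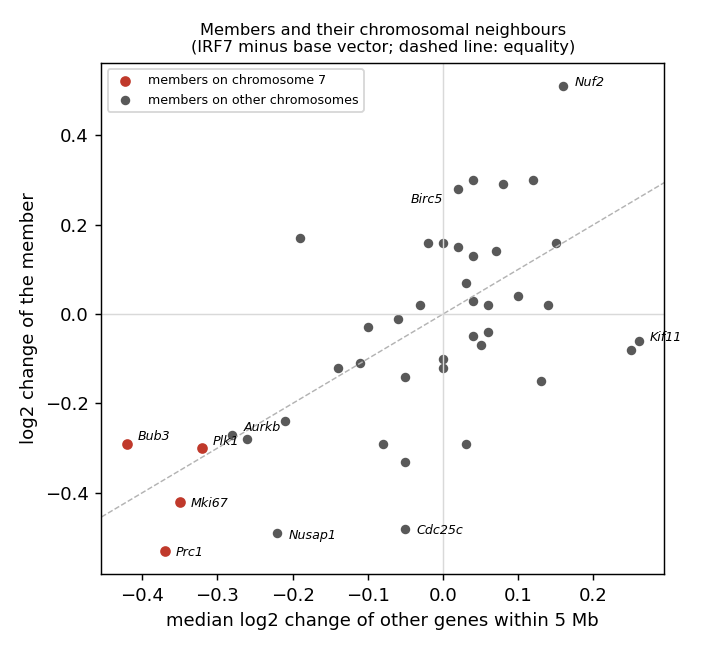
Log2 change of each mitotic gene (vertical axis) against the median log2 change of the other tested genes within 5 Mb (horizontal axis), IRF7 minus base vector, with chromosome 7 genes in red and the dashed line marking equality. The 4 chromosome 7 genes sit at the lower left with neighbours' medians of -0.42 to -0.32, and Nuf2 and Cdc25c lie far from the line.

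The rest of the division machinery also moved in both directions, and most S-phase genes rose. Of 108 other listed mitotic genes, 105 were tested, 32 rose and 35 fell (30.5% and 33.3%), with a median of 0.02. The clearest by p were Psrc1, a microtubule-binding spindle protein (log2 change -2.18), Zw10, which brings dynein to kinetochores (0.77), Trip13, which remodels the checkpoint protein Mad2 (0.53), and Cdc25a, the phosphatase of S-phase entry (0.47). Psrc1 had levels of -0.92, -0.97 and -0.93 in IRF7 cells and 1.27, 1.22 and 1.23 in base-vector cells, and was the only one of the 105 to reach 2-fold. All 61 listed S-phase genes were tested, and 44 rose (72.1%) and 6 fell, with a median of 0.26. The examples with the smallest p were Gins3 (1.06) and Orc6 (0.72), which help load and start replication forks, Fen1, the flap endonuclease (0.43), and Rpa1, the large subunit of the single-strand binding complex (-0.85). The S-phase median was positive under each scaling run (0.22 to 0.46), whereas the median of the 43 ran between -0.09 and 0.15.

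Of 30 G1 cyclins, kinases and inhibitors, 27 were tested, 14 rose and 7 fell, with a median of 0.14. These are 51.9% and 25.9%, beside 31.9% and 29.1% of all genes. Cdkn1a (p21), an inhibitor of cyclin-dependent kinases, had levels of -0.13, -0.16 and -0.07 in IRF7 cells and -1.64, -1.57 and -1.54 in base-vector cells (2.76-fold higher, log2 change 1.46, limma adjusted p = 4.42e-06). Ccnd3 and Cdk6, a cyclin and kinase pair that promotes G1 progress, rose by 1.14 and 0.96 on the log2 scale, and E2f7, a repressing E2F factor, by 0.50. Other inhibitors on the list were called in both directions, with Cdkn1b (-0.44) and Cdkn2c (-0.22) lower and Cdkn2d (0.27) higher. Ccnd2 (-0.32) and Cdk4 (-0.18) were also called lower and Cdk2 (0.28) higher. Neither the inhibitors nor the promoters of G1 progress therefore moved together.

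**Figure D5:**
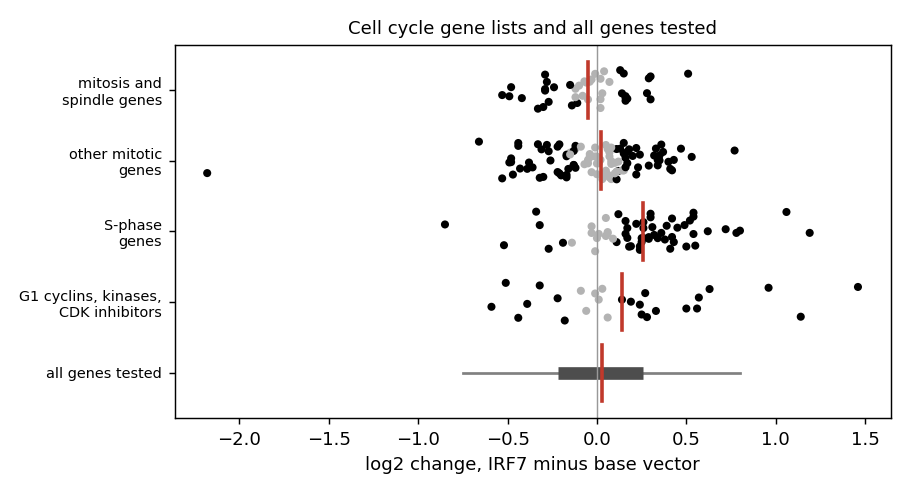
Log2 change, IRF7 minus base vector (horizontal axis), of each tested gene of 4 cell cycle lists, with black points for called genes, grey points for the others and a red line at the median. The lowest row gives all genes tested, with the box at the 25th to 75th percentile (-0.22 to 0.26) and the line at the 5th to 95th (-0.75 to 0.80); the S-phase median stands at 0.26 and that of the mitotic genes at -0.05.

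Some markers of cell type moved with the groups. Of 8 epithelial markers, 6 were tested and 3 rose and 1 fell, while Krt19 and Cldn4 were not above background on any array, and their summed level, linear and relative to the 75th percentile, was 378 to 395 in IRF7 cells and 343 to 363 in base-vector cells. Of 7 fibroblast markers, 4 were tested and 3 fell (sum 2.44 to 2.52 in IRF7 cells and 5.70 to 5.76 in base-vector cells), with Thy1 not above background on any array. Pdgfra (mean level 2.46 in base-vector cells) makes up most of this sum. Pdgfrb and Dcn were well above background in base-vector cells only. They passed the filter through that group alone, so their falls add no support. Col1a2 differed by 0.30 and was not called. Of 5 endothelial markers, 2 were tested and both rose (sum 0.65 to 0.701 in IRF7 cells and 0.269 to 0.31 in base-vector cells), with Pecam1 not above background on any array. Of 9 leukocyte markers, 3 were tested and none was called (sum 0.263 to 0.408 in IRF7 cells and 0.241 to 0.298 in base-vector cells), with Cd3d, Cd79a and Itgam not above background on any array. Their part in the changes of the mitotic genes was not tested.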

How the data were processed

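RNA from 6 cultures was hybridised to single-colour arrays. Per the labels' protocols, column-purified and DNase-treated RNA was copied into Cy3-labelled cRNA. Per the submitters' processing notes, the scanner software was Agilent Feature Extraction 9.5.3.1. The authors deposited each spot's processed intensity, background-subtracted and linear per the file headers, and a value table whose columns were identical to it (largest difference 0), so it is unscaled. Of 45018 spots per array, 1639 were controls. These and 111 to 121 outlier-flagged spots per array were left out, and spots of a probe were averaged (41174 probes).

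The log2 of the processed intensity minus that of the array's 75th percentile (1148.1 to 1458.3) was tested. The filter kept 23536 probes that were well above background on 3 or more arrays, and the one with the highest mean signal stood for a gene. No mitotic probe used was saturated. Names came from GRCm38.p6 by accession (22893 probes), symbol (6718) or older symbol (3108), else from the files (8455). The test was limma 3.58.1 (lmFit, eBayes, R 4.3.3) without a block, adjusted by Benjamini-Hochberg over 15423 genes at 0.05, with 4 residual and 1.64 prior degrees of freedom. It was tested on simulated data. Tables and plots were made with Python 3.11.15, pandas 2.3.3 and matplotlib 3.10.9. Coordinates of probes are those of the files (mm7), and promoters are RefSeq's.

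All 43 genes and every further probe are named, with up to 4 genes of the smallest p from each other list. The members and lists were chosen with earlier results of these data known. Alternatives were quantile normalization, median centring, no scaling, normexp (offset 50), other filters, the mean of a gene's probes, a trended robust eBayes, a slide block (fixed or random), slide 1 on its own, the replicate block and each array left out. Dropping the chromosome 7 genes and subtracting the neighbours were chosen after seeing the data. The promoter windows of 50 bases and of 25 to 40 bases were not part of the plan either. Same-numbered arrays of the groups deviated together with correlations of 0.045, 0.181 and 0.231, and differently numbered arrays with -0.183 to 0.002. The same-numbered values are all higher, but 0.045 is small, so the main fit used no block. Whether the numbers pair the arrays is left undecided, and the replicate block was run as an alternative. The number of arrays limits the precision.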

Additional observations from a re-analysis of the deposited data

How the results depend on the processing

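The median change of the 43 genes (-0.05) was -0.09 after quantile normalization, -0.09 after median centring, 0.15 without scaling and -0.01 minus the neighbours' median. The 12 genes called higher became 1 with median centring, 6 with slide as a fixed block and 4 within slide 1, and the 15 called lower became 2 without scaling and 9 within slide 1. Without scaling Ndc80 was 0.05, Tpx2 0.09 and Kif20a 0.06. Cenpa was -0.29 as the mean of its probes and -0.61 on its further probe. As the mean of its probes Ect2 was 0.10 and lost its call (adjusted p = 0.206). Over all genes, 9399 calls became 14504 with no filter on dim probes, with 32.8% of them higher against 52.3%, 6364 with median centring, with 43.8% higher, and 8266 to 9073 without 1 array. With the replicate block, 9738 genes were called. Of the 27 called mitotic genes 26 kept the call, Anln lost it (adjusted p = 0.0558) and Ube2c gained it (adjusted p = 0.0489). Each array correlated best with its own number.

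Without 1 array, 9 to 11 genes were called higher and 13 to 16 lower. Calls were lost by Anln without any array but IRF7 replicate 1, Foxm1 without any but base-vector replicate 3 and Tpx2 without any but base-vector replicate 2 (highest adjusted p 0.112, 0.0687 and 0.0972), by Kif20a without any but IRF7 replicate 3 or base-vector replicate 2 (0.0672) and by Cdca8 without base-vector replicate 1 (0.0523). Among listed mitotic genes beyond the 43, the 32 higher and 35 lower became 14 and 20 with median centring, and the S-phase split of 44 and 6 became 23 and 5. The causes were not tested. Normexp, trend and robust fitting and slide as a random block (correlation -0.16) ended no call of the 27. With that negative correlation the random block called 10016 genes, against 9399 in the main fit. It is therefore no check of a slide effect. Having 3 arrays a group limits what smaller changes could show.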
